A study of Mus musculus with 6 samples.

Results

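The levels of 10 nuclear or untailed noncoding RNAs were followed in samples labelled as bone endothelial cells (BECs): Malat1, Neat1, Meg3, Kcnq1ot1, H19, Gas5, Rmrp, Rpph1, Rn7sk and Terc. They were chosen by name. Rows of the gene count table, matched by Ensembl identifier to GRCm39 gene symbols, were found for 7 of the 10 among 37991 genes. Kcnq1ot1, Rn7sk and Terc had no matching row and were not analysed here. The annotation used names no gene for 6918 identifiers of the table, and whether any of these belongs to a missing member was not settled. The cells came from the tibia of c57/Bl6 mice aged 12 weeks, 3 female and 3 male libraries, with no treatment named, and were purified by endomucin expression and sorted into lysis buffer. The question was how these RNAs are distributed over the libraries and whether males and females differ. The labels name polyadenylated RNA as the molecule sequenced and the methods of the study name a total RNA kit, so the levels of RNAs without a poly(A) tail were described as well. The labels do not say that each library is a separate mouse, so p-values measure the spread between these samples, which may be partly technical.

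Most long noncoding RNAs are spliced, capped and given a poly(A) tail by the machinery that makes messenger RNA, but several of the most abundant ones are not finished that way. Malat1, a component of nuclear speckles, has its 3′ end cut by RNase P, the same enzyme that trims the 5′ ends of transfer RNAs. Neat1, which builds the paraspeckle, is made as a short form with a poly(A) tail and a long form whose end is cut by RNase P. Rpph1 is the RNA subunit of RNase P itself. Rmrp is the RNA of the related RNase MRP, which cuts the precursor of ribosomal RNA. Both are short RNA polymerase III transcripts without a poly(A) tail. Gas5 carries small nucleolar RNAs (snoRNAs) in its introns. H19 and Meg3 are imprinted RNAs made from the maternal chromosome.

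Rmrp and Rpph1 are shown because, among these genes, they had the widest gaps between the highest library and the next. The sequences are those of the GENCODE M39 transcripts, 5′ to 3′ in DNA letters. Rmrp lies on the minus strand of chromosome 4 (GRCm39, chr4:43492788-43493058) and Rpph1 on the minus strand of chromosome 14 (chr14:51044906-51045224), each as 1 exon of 271 and 319 bases, annotated as a ribozyme. Capitals mark the longest stretch that both hold, 9 bases, at positions 183 to 191 of Rmrp and 17 to 25 of Rpph1. Rmrp is printed whole and Rpph1 from base 1 to 300.
Rmrp: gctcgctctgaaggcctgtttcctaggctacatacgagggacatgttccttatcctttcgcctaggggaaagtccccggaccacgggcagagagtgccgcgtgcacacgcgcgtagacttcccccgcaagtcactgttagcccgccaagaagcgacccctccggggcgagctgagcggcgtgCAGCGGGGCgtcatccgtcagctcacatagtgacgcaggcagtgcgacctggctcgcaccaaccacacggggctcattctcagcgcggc
Rpph1: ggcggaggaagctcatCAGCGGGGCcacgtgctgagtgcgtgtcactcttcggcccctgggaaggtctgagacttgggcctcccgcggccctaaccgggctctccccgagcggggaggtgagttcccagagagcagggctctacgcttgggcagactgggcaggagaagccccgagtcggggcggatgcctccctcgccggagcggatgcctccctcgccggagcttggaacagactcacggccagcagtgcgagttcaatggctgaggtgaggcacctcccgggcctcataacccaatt
Both are rich in G and C, 64.2% of the bases in Rmrp and 67.1% in Rpph1, and in a global alignment 176 of 340 columns were identical, 51.8% with gaps counted and 70.4% of the 250 columns without a gap. Stretches of at least 40 bases with at least 90% identity to Rpph1 were present in transcripts of 21 other genes, so its counts could include reads of copies. Its annotated copies Rprl1, Rprl2 and Rprl3 had rows of their own, with at most 2 counts in any library. For Rmrp the only such gene was Ccdc107, which overlaps it on the opposite strand.

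Runs of A are shown for Malat1 and Neat1 because the labels name polyadenylated RNA while both have a 3′ end that RNase P can form. The longest run of A in each annotated transcript is in capitals, with up to 25 bases on either side.
Malat1: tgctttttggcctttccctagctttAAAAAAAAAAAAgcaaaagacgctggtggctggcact
Neat1: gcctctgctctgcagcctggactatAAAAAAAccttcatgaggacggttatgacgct
In Malat1 (minus strand of chromosome 19, chr19:5845717-5853602, 1 exon of 7886 bases) the run had 12 A at bases 7576 to 7587, 299 bases before the annotated end. It lies just before the known RNase P cleavage site of this RNA. A run at least as long was present in 6.80% of 481956 annotated mouse transcripts. In Neat1 (chr19:5874736-5897132, minus strand, 22397 bases) the longest run had 7 A, a length reached by 29.9% of transcripts, and it lay 11226 bases before the annotated end. The longest run had 3 A in Rmrp and 2 A in Rpph1, against a median of 5 over all transcripts.

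Total counts per library lay between 47678806 and 58325745, and a floor of 3 counts corresponded to 0.0514 to 0.0629 CPM, counts scaled to library size. The floor allows for counting error alone, because reads were amplified and carry no molecular identifiers. Levels below are CPM scaled by the trimmed mean of M-values (TMM). Markers of other bone marrow cells were present throughout and went against a pure endothelial sample, so BEC is used here as the label only. The 18 neutrophil markers held 2.16 to 2.35% of counts in females and 3.55 to 4.61% in males, while the 20 endothelial markers held 0.0439 to 0.0693% in females and 0.0286 to 0.0397% in males. The neutrophil list held the larger share in 6 of 6 libraries, and 11 erythroid markers held 1.31 to 2.85%. All endothelial markers were detected, led by Stab2 (mean 93.3 CPM), Pecam1 (85.4 CPM) and Stab1 (46.4 CPM), and S100a9, a neutrophil calgranulin subunit, reached a mean of 11180 CPM. In each of these marker lists, and in the erythroid and macrophage lists, the summed share separated the sexes (two-sided exact permutation p = 0.1, which no split of 6 libraries into 3 and 3 can go below). The B cell and stromal lists did not, with exact p = 0.9 and exact p = 0.3. In bulk samples such as these, fewer cells of a type and less RNA per cell cannot be told apart. Beside the sex difference of each member below, the value with the neutrophil marker score as a covariate is given. Since the neutrophil share separated the sexes, this fit tells the score from sex poorly in 6 libraries. The part of the other cell types was not tested.

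Malat1 was the most abundant of these RNAs, and together with Neat1 and Gas5 made up nearly all of their counts. The 7 measured genes held 0.104%, 0.0629% and 0.0538% of counts in female replicates 1 to 3 and 0.0866%, 0.119% and 0.0838% in male replicates 1 to 3. The male minus female difference of 0.0227 percentage points was not larger than the spread between libraries (exact permutation test, two-sided, p = 0.3). Without Malat1 it was 0.00334 points (exact p = 0.5). By mean CPM the order was Malat1, Neat1, Gas5, Rpph1, Rmrp, Meg3 and H19. Malat1 exceeded the next gene in 6 of 6 libraries, and the ranges of Gas5 and Rpph1 did not overlap either. Neat1 and Gas5 changed places, with Neat1 higher in 3 of 6 libraries, and the ranges of Rpph1, Rmrp, Meg3 and H19 overlapped.

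**Figure D1:**
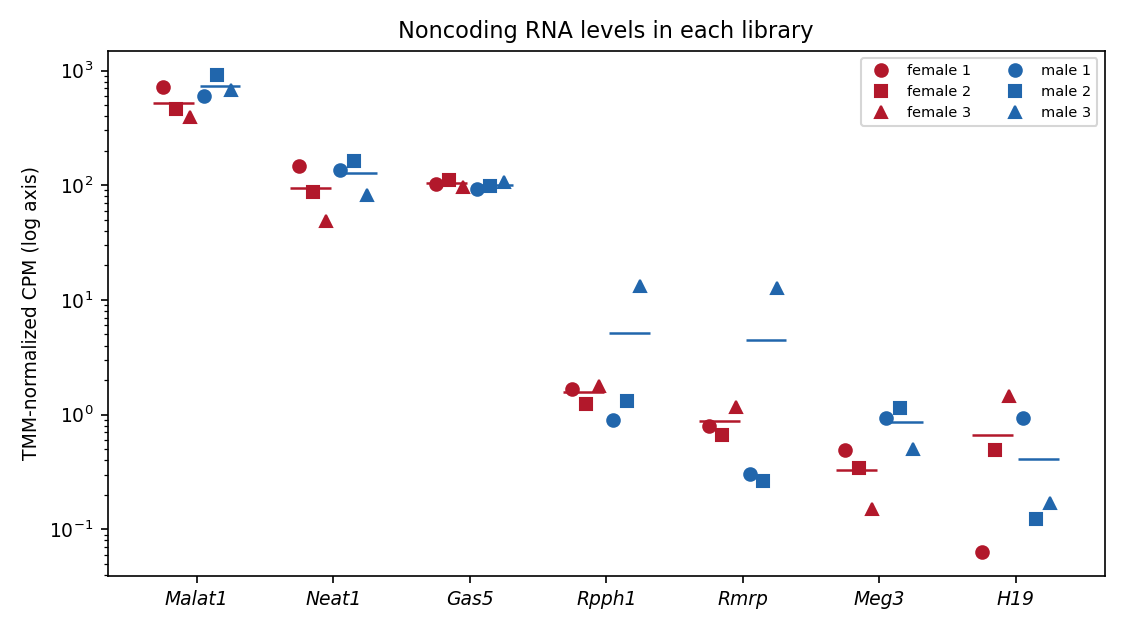
TMM-normalized CPM on a log axis for the 7 measured noncoding RNAs in the 3 female (red) and 3 male (blue) libraries, with short lines at the mean of each sex. Malat1 lies above the others in every library, Gas5 keeps within 92.5 to 111 CPM, and male replicate 3 stands above the other libraries in Rpph1 and Rmrp.

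Levels of different genes can be compared only per length. Per kilobase of merged exons in GENCODE M39, Malat1 had a mean of 79.4 CPM, Gas5 24.0, Rpph1 10.6, Rmrp 9.84, Neat1 4.94, H19 0.189 and Meg3 0.0307. The means of Rpph1 and Rmrp rest on male replicate 3, with 41.7 and 47.2 CPM per kilobase. Without that library, a setting chosen after seeing the data, they were 4.33 and 2.36 CPM per kilobase, below the 5.19 of Neat1. With all 6 libraries Rmrp stood above Neat1 in 2 of them. Neat1, whose annotated length includes the long form, stood below Gas5 on this scale in every library. For Gas5 the merged exons of all annotated transcripts (4228 bases) cover nearly the whole gene (chr1:160861793-160866118), so its value per kilobase is too low for a shorter spliced form. The counts were made on an older set of gene models than these lengths, so the values per kilobase are approximate.

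No difference between the sexes was called for any measured member. With edgeR's quasi-likelihood test, 0 of 7 passed an adjusted p of 0.05, against 0.0411% of the 19480 genes tested, and 0 did so with DESeq2, which called 1.99% of genes and gave no adjusted p for Rmrp and Rpph1. At an unadjusted p under 0.05 there was 1 of 7, Meg3, against 9.79% of all genes tested. The median log2 fold change of male over female was 0.48 over the 7 genes and -0.00125 over all genes tested, of which 49.8% had a value above 0. Of the 7, 5 had a value above 0. Both summaries turned without male replicate 3, to a median of -0.12 with 3 of 7 above 0. With the neutrophil score in the fit they turned as well, to a median of -0.14 with 3 of 7 above 0. The members that changed sign there were Rmrp (-0.77, standard error 4.35) and Rpph1 (-0.25, standard error 2.62). Malat1, Neat1 and Meg3 rose instead, to 0.79, 1.61 and 2.42. Only Meg3 had no overlap between the sexes, with males higher, a pattern shown by 7.25% of all genes tested (14.5% in either direction and 7.29% with females higher). Scaled by total counts alone, an alternative for this count added after seeing the data, 0 of 7 were without overlap, against 5.98% of genes with males higher.

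**Figure D2:**
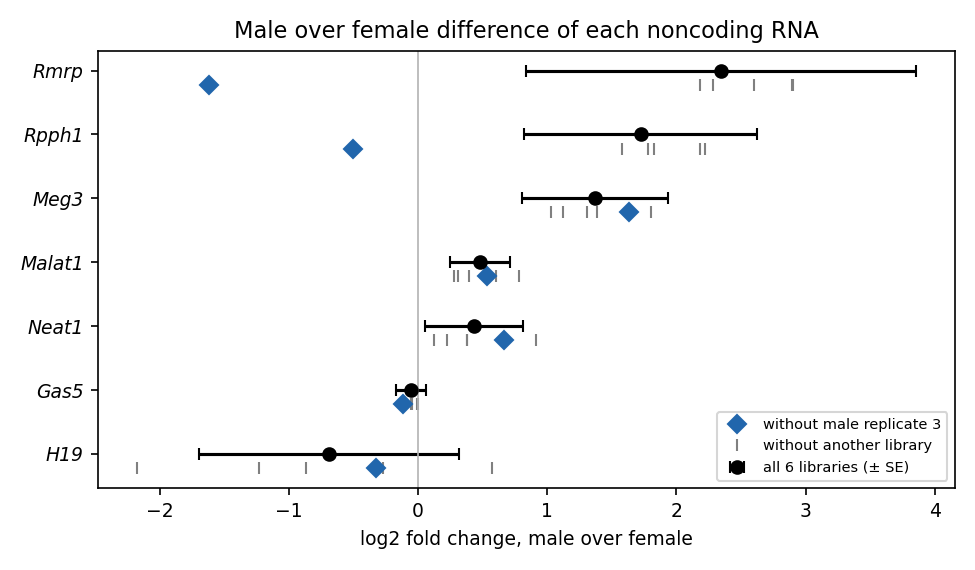
Log2 fold change of male over female for each of the 7 noncoding RNAs, with the standard error from the edgeR fit of all 6 libraries (black), and the same value with 1 library left out (grey ticks, blue diamonds for male replicate 3). Without male replicate 3 the values of Rmrp and Rpph1 turn from 2.34 and 1.72 to -1.62 and -0.50.

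Malat1 was measured at 714, 460 and 396 CPM in female replicates 1 to 3 and at 595, 921 and 673 CPM in male replicates 1 to 3. The highest level was in a male and the lowest in a female library, but the groups overlapped, since female replicate 1 exceeded males 1 and 3. The means were 523 ± 168 CPM in females and 730 ± 170 CPM in males (SD, n = 3 each). The log2 fold change was 0.48 with a standard error of 0.24 (edgeR adjusted p = 0.548). It lay between 0.28 (without male replicate 2) and 0.78 (without female replicate 1) when 1 library was left out, and was 0.79 with a standard error of 0.51 with the neutrophil score in the fit (edgeR adjusted p = 0.620). These levels rest on 18577 to 45387 counts, so counting error is small beside the spread between libraries. The standard deviation of log2 CPM over the 6 libraries was 0.443, above that of 73.1% of genes tested.

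Neat1 was measured at 146, 87.1 and 48.9 CPM in females and at 136, 162 and 82.7 CPM in males, in replicate order. Replicate 3 was the lowest library of each sex, and the sexes overlapped. The log2 fold change was 0.43 with a standard error of 0.38 (edgeR adjusted p = 0.757). It lay between 0.12 (without female replicate 3) and 0.92 (without female replicate 1) when 1 library was left out, and was 1.61 with a standard error of 0.79 with the neutrophil score (edgeR adjusted p = 0.587). The ratio of Malat1 to Neat1 was 4.88, 5.27 and 8.09 in females and 4.36, 5.68 and 8.13 in males. The replicate 3 libraries of both sexes therefore had the highest ratio, with less Neat1 for each Malat1 count. The ratio did not differ between the sexes beyond their spread, with means of 6.08 and 6.06 (exact permutation test of log2 ratios, two-sided, p = 1). Frmd8os, the antisense neighbour of Neat1, had 9 to 22 counts in any library.

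**Figure D3:**
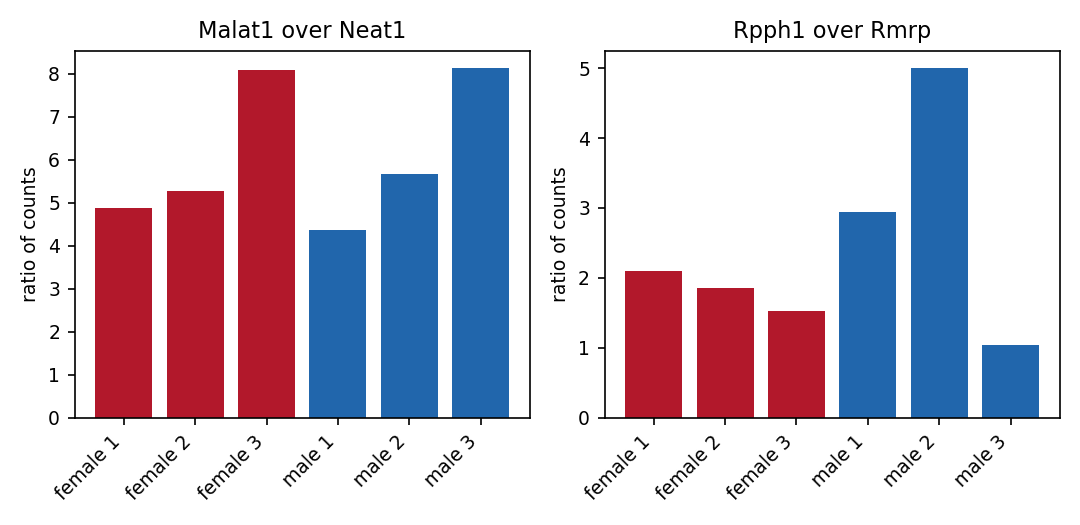
Ratio of Malat1 to Neat1 counts (left) and of Rpph1 to Rmrp counts (right) in each female (red) and male (blue) library. Malat1 over Neat1 reaches 8.09 and 8.13 in the replicate 3 libraries, and Rpph1 over Rmrp is lowest, at 1.04, in male replicate 3.

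The proteins of speckles and paraspeckles showed no called difference. Of 21 listed genes, 0 were called, against 0.0411% of all genes tested, and 0 passed an unadjusted p of 0.05, against 9.79%. Their median log2 fold change was -0.02, and 3 of 21 had females above males without overlap, against 7.29% of all genes tested. The most abundant were Hnrnpk, an RNA-binding protein found in paraspeckles, with 491 to 556 CPM, Son, a speckle scaffold, with 258 to 361 CPM, and Hnrnpm, a splicing regulator, with 292 to 328 CPM.

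Gas5 was the steadiest of these RNAs. It was measured at 103, 111 and 96.8 CPM in females and at 92.5, 98.8 and 108 CPM in males, with 4543 to 6455 counts a library. The groups overlapped throughout, and the highest library exceeded the lowest by 1.2-fold. The log2 fold change was -0.06 with a standard error of 0.11 (edgeR adjusted p = 0.909), and -0.14 with a standard error of 0.22 with the neutrophil score. Its standard deviation over the libraries was 0.0986 on the log2 scale, and 5.62% of genes tested varied less. The 9 snoRNA genes inside Gas5 that had a row were at 0 counts in all 6 libraries, which allows up to 3 counts in each. How reads that fall on both a snoRNA and its host were counted is not given in the sources used here.

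Other snoRNA hosts were not called either. Of 9 tested, 7 had a fitted difference above 0, with a median of 0.25, and 1, Snhg11, passed an unadjusted p of 0.05. Over all genes tested 49.8% were above 0 and 9.79% passed, so the share that passed was near the background. Zfas1 was the most abundant with 31.3 to 45 CPM, followed by Snhg11 with 21.7 to 31.7 CPM and Snhg15 with 7.88 to 11.6 CPM. Snhg11 had a log2 fold change of 0.34 with a standard error of 0.14 (edgeR adjusted p = 0.450). Among 7 further long noncoding RNAs tested, 0 were called, against 0.0411% of all genes tested, and 1, Mir22hg, passed an unadjusted p of 0.05, against 9.79%. Mir22hg had a log2 fold change of 0.47 with a standard error of 0.21 (edgeR adjusted p = 0.499). The most abundant were Oip5os1 with 133 to 152 CPM, Tug1 with 53.0 to 75.2 CPM and Ftx, from the X inactivation centre, with 12.3 to 23.7 CPM. All genes annotated as long noncoding RNA held 0.529 to 0.749% of counts, against 85.5 to 88.3% for protein-coding genes.

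Rpph1 and Rmrp stood out by a single library. Rpph1 was measured at 1.67, 1.23 and 1.79 CPM in females and at 0.892, 1.32 and 13.3 CPM in males, from 105, 65 and 84 counts and from 47, 65 and 631 counts. Male replicate 3 was 7.43-fold above the next library, and the other males lay within or below the female range. Rmrp was measured at 0.795, 0.662 and 1.17 CPM in females and at 0.304, 0.264 and 12.8 CPM in males, from 50, 35 and 55 counts and from 16, 13 and 607 counts. Male replicate 3 was 10.9-fold above the next library, while male replicates 1 and 2 were below all females.

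The fitted sex differences of both RNAs were decided by that library. The log2 fold change was 1.72 with a standard error of 0.90 for Rpph1 (edgeR adjusted p = 0.584) and 2.34 with a standard error of 1.51 for Rmrp (edgeR adjusted p = 0.675). Without male replicate 3 they were -0.50 (edgeR adjusted p = 0.591) and -1.62 (edgeR adjusted p = 0.256). With the neutrophil marker score in the fit they were -0.25 and -0.77, with standard errors of 2.62 and 4.35. The share of counts in the 2 RNAs together was 0.000266%, 0.000180% and 0.000292% in females and 0.000125%, 0.000158% and 0.00246% in males. Its male minus female difference of 0.000667 percentage points had exact permutation p = 1 (two-sided).

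Among 16102 genes with a mean of at least 1 CPM, Rmrp had the widest gap between its highest library and the next. The gap of Rpph1 was reached by 9 genes including both RNAs, and all 9 were highest in male replicate 3. Of 40 genes with a gap of at least 5-fold, 40 had it in that library. Of these 40, 34 had identifiers with no symbol in the annotation used here, 2 were ribozymes, 2 were small nuclear RNAs, 1 was a long noncoding RNA and 1 was Rn7s6, a 7S RNA gene. Rn7s6 was measured at 6.68, 4.81 and 6.67 CPM in females and at 2.56, 4.57 and 61.4 CPM in males. It too was 9.19-fold above the next library in male replicate 3 and lowest in male replicate 1. These genes were named after their values were seen.

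**Figure D4:**
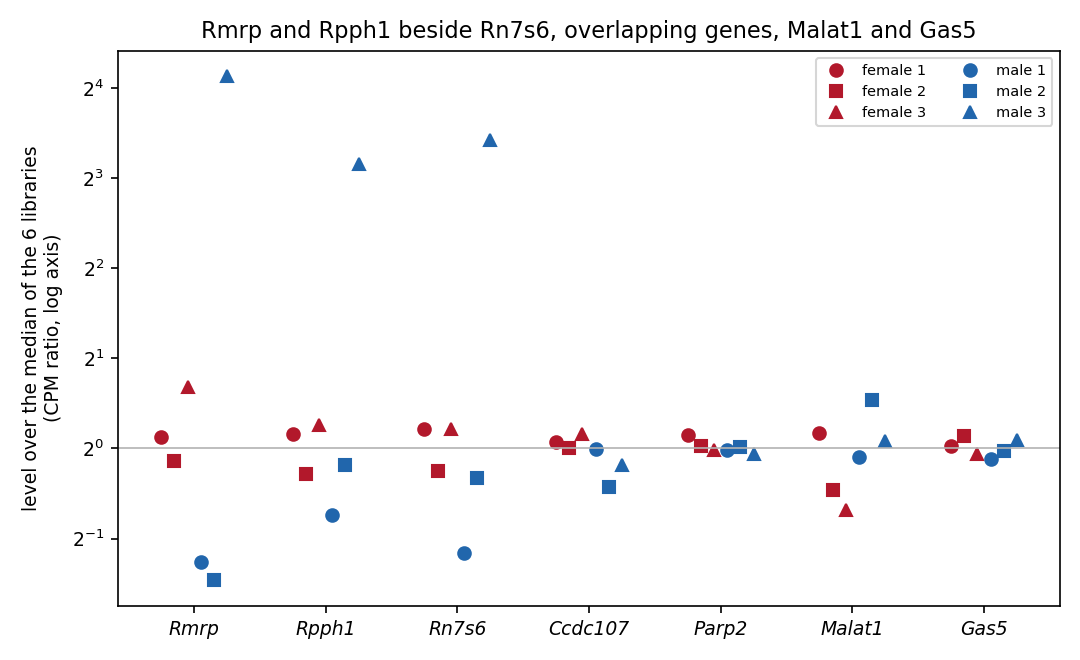
Level of each gene in each library divided by its median over the 6 libraries, on a log2 axis, females red and males blue. Rmrp, Rpph1 and Rn7s6 are far above the median in male replicate 3, whereas the overlapping genes Ccdc107 and Parp2, and Malat1 and Gas5, are not.

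The genes that overlap them on the opposite strand did not share this pattern. Ccdc107, on the strand opposite Rmrp, was measured at 7.06 to 10.6 CPM, with 8.37 CPM in male replicate 3. Parp2, opposite Rpph1, had 26.9 CPM there and 27.8 to 31.2 CPM in the other libraries. Ccnb1ip1, on the same strand as Rpph1, was highest in male replicate 3, with 36 counts or 0.759 CPM, against 0.0759 to 0.609 CPM elsewhere. The ratio of Rpph1 to Rmrp was 2.10, 1.86 and 1.53 in females and 2.94, 5 and 1.04 in males, so both RNAs were about equal in counts only in male replicate 3.

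The messenger RNAs of the proteins that bind these RNAs kept an even share in sum. The 11 protein genes of RNase P and RNase MRP held 0.0118 to 0.0132% of counts, with 0.0126% in male replicate 3. None of the 11 was called, against 0.0411% of all genes tested, and none passed an unadjusted p of 0.05, against 9.79%. Rpp14 had 17.8 to 23.3 CPM, Pop5 16.9 to 24.0 CPM and Rpp25l 16.2 to 22.1 CPM. Single genes varied more than the sum, with log2 fold changes from -0.36 to 0.82, and 4 of 11 were highest in male replicate 3. In that library the summed share was 8.42-fold that of the next highest library for the 2 RNAs and 0.957-fold for the 11 messenger RNAs.

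Other RNAs that normally lack a poly(A) tail were unevenly distributed. A list of 126 small RNA genes held 0.00704% of counts there and 0.00144 to 0.00230% elsewhere. Without Rn7s6 the other 125 held 0.000898 to 0.00158% in all 6 libraries, with 0.00127% in male replicate 3. Of 21 small RNAs tested, 0 were called between the sexes, against 0.0411% of all genes tested. Of the 21, 16 had a fitted difference above 0 (median 0.60), against 49.8% of all genes. At an unadjusted p of 0.05 there was 1, Snora73b (8 to 79 counts), against 9.79%. It had males above females without overlap and Snord104 had the reverse, 1 of 21 each, against 7.25% and 7.29%. After Rn7s6 the most abundant were Snord104, a snoRNA, with 0.853 to 2.17 CPM, and Scarna2, a Cajal body RNA, with 0.922 to 2.99 CPM and its highest level in male replicate 3. Genes annotated as snoRNA held 0.00206% there, within the 0.00153 to 0.00339% of the other libraries. Other classes were highest there, at 2.63-fold the next library for genes annotated as ribosomal RNA outside the mitochondria (25 counts), 2.11-fold for Cajal body RNAs, 1.55-fold for the mixed class that holds Rn7s6 and 1.2-fold for small nuclear RNAs. Mitochondrial transfer RNAs and microRNA genes were not highest there.

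Histone messenger RNAs made in S phase, which end in a stem-loop in place of a poly(A) tail, held 0.0838 to 0.106% of counts over 54 genes. Male replicate 3 had the highest share, 1.01-fold the next. Of 52 tested, 0 were called, 43 had a fitted difference above 0 and 5 had males above females without overlap. Over all genes tested these shares were 49.8% and 7.25%. Of the 52, 29 were highest in male replicate 3, and the summed share did not differ between the sexes beyond its spread, with 0.0910 ± 0.0122% in females and 0.0972 ± 0.0117% in males (SD, n = 3 each, two-sided exact permutation p = 0.6). The most abundant were H2ac11 with 88.1 to 133 CPM, H2ac6 with 74.1 to 114 CPM and the linker histone gene H1f2 with 63.7 to 91.9 CPM. H1f2 was measured at 69.9, 66.8 and 63.7 CPM in females and at 84.2, 91.9 and 91.6 CPM in males (log2 fold change 0.42, standard error 0.11, edgeR adjusted p = 0.222). H2ac11 and H2ac6 belong to a family of near-identical genes, and how their shared reads were assigned is not known. The mitochondrial ribosomal RNAs mt-Rnr2 (mean 4104 CPM) and mt-Rnr1 (mean 1749 CPM), which carry short tails, held 0.454 to 0.768% of counts, with the highest share in male replicate 3.

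Meg3 was low, and its order by sex depended on the scaling. It was measured at 0.493, 0.341 and 0.149 CPM in females, from 31, 18 and 7 counts, and at 0.930, 1.14 and 0.506 CPM in males, from 49, 56 and 24 counts. With TMM each male library was above each female library, the closest pair being male replicate 3 and female replicate 1. Scaled by total counts alone the sexes overlapped, since female replicate 1 (0.531 CPM) was then above male replicate 3 (0.476 CPM). The log2 fold change was 1.37 with a standard error of 0.57 (edgeR adjusted p = 0.464), and lay between 1.03 and 1.80 when 1 library was left out. With the neutrophil score it was 2.42 with a standard error of 1.13 (edgeR adjusted p = 0.587). Within the replicate 3 libraries, as for Neat1, each sex had its lowest level.

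H19 varied without regard to sex. It was measured at 0.0636, 0.492 and 1.45 CPM in females, from 4, 26 and 68 counts, and at 0.930, 0.122 and 0.169 CPM in males, from 49, 6 and 8 counts. The highest and the lowest library were both female. The log2 fold change was -0.69 with a standard error of 1.01 (edgeR adjusted p = 0.866), and -0.61 with the neutrophil score. It lay between -2.17 (without male replicate 1) and 0.57 (without female replicate 3) when 1 library was left out. Its standard deviation of 1.54 on the log2 scale was above that of 99.3% of genes tested, at counts where sampling adds to it.

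Genes of the imprinted domains that hold Meg3, H19 and Kcnq1ot1 were not called in the edgeR fit by sex. With replicate number as a block, 1 was called, Cdkn1c, lower in males (log2 fold change -1.01, edgeR adjusted p = 0.0143). Whether the numbers pair the samples was not settled. Of 10 tested, 8 had a fitted difference below 0, against 49.8% of all genes tested above 0. Of these, 3 passed an unadjusted p of 0.05, Kcnq1, Slc22a18 and Cdkn1c, against 9.79% of all genes tested. The most abundant were the tetraspanin gene Cd81 with 134 to 192 CPM, Nap1l4 with 83.8 to 108 CPM and Tssc4 with 16.4 to 21.4 CPM. Of the 10, 2 had females above males without overlap, Cd81 and Slc22a18, against 7.29% of all genes tested. Cd81 had a log2 fold change of -0.26 with a standard error of 0.12 (edgeR adjusted p = 0.524). Single partners of the members are given next, picked after their values were seen. Igf2, the growth factor gene beside H19, was measured at 1.46, 1.36 and 3.81 CPM in females and at 3.68, 2.19 and 6.26 CPM in males. Its highest library was male replicate 3, where H19 had 8 counts. Dlk1, the protein-coding gene beside Meg3, had 8 and 6 counts in male replicates 1 and 2 and 0 in the other 4 libraries, too few to be tested. Dio3, at the other end of that domain, had 3, 5 and 11 counts in females and 2, 0 and 0 in males, too few to be tested as well. Kcnq1, the gene that holds Kcnq1ot1, was measured at 1.19, 0.851 and 2.04 CPM in females and at 0.380, 0.345 and 0.885 CPM in males (log2 fold change -1.34, standard error 0.51, edgeR adjusted p = 0.418).

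Of 9 further imprinted genes tested, 0 were called and 8 had a fitted difference below 0, against 49.8% of all genes tested above 0. At an unadjusted p of 0.05 there were 2 of 9, against 9.79% of all genes tested, and 3 had females above males without overlap, against 7.29%. The summed share of the 12 listed genes was 0.0688 to 0.0724% in females and 0.0573 to 0.0671% in males (two-sided exact permutation p = 0.1, the lowest possible). Most of this sum was Gnas, with a mean of 592 CPM against 28.1 for Igf2r and 19.6 for Impact. By itself Gnas had a log2 fold change of -0.15 with a standard error of 0.13 (edgeR adjusted p = 0.757). Gnas, which encodes a G protein alpha subunit, had 521 to 655 CPM, Igf2r 20.1 to 33.8 CPM and Impact 17.4 to 25.6 CPM. Impact was lower in every male than in every female library with TMM, while by total counts alone the sexes overlapped (log2 fold change -0.28, standard error 0.15, edgeR adjusted p = 0.583).

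For Rn7sk, the RNA that holds the elongation factor P-TEFb inactive, and for Terc, the template RNA of telomerase, only the partner proteins were described here. Of 7 genes of the 7SK particle, 0 were called, against 0.0411% of all genes tested, and 0 passed an unadjusted p of 0.05, against 9.79%. Cdk9, the P-TEFb kinase, had 105 to 121 CPM, and its cyclins Ccnt1 and Ccnt2 had 48.6 to 69.7 and 34.2 to 66.8 CPM. Of 11 telomerase genes, 0 were called and 1, Tep1, passed an unadjusted p of 0.05, a share near the 9.79% of all genes tested. Tep1 had 59.9 to 61.8 CPM in females and 48.2 to 51.4 CPM in males (log2 fold change -0.28, standard error 0.10, edgeR adjusted p = 0.401). Dkc1, the pseudouridine synthase of the complex, had 48 to 59.9 CPM, and Nop10 had 38.3 to 56.3 CPM.

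Genes whose profile over the 6 libraries was nearest to that of the 4 most abundant members were found by the root mean square distance of centred log2 CPM, over 10083 other genes (10084 for Rpph1) with a mean of at least 10 CPM. For Malat1 the nearest were a gene with no symbol (0.0554), Ccdc141 (0.0663) and Slc28a3 (0.0714), against a median distance of 0.445. For Neat1 they were Mapk8ip3 (0.0879) and 2 genes with no symbol, against 0.622. For Gas5 they were Dnajc2 (0.0260), a gene with no symbol (0.0311) and Bphl (0.0347), against 0.184. For Rpph1 they were 2 genes with no symbol (0.131 and 0.132) and Gm15564, a long noncoding RNA gene (0.194), against 1.28. These distances are a description of 6 libraries, with no test.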

How the data were processed

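RNA of cells labelled as BECs was sequenced in 6 libraries. The authors deposited raw gene-level counts, 1 column a library, with no normalization or pooling. The submitters' processing notes name TopHat2 2.0.11, mm9 and featureCounts, and the study names STAR, GRCm39 and featureCounts. Kit, instrument and read length differ between them too, and neither version was tested. The annotation release and strand setting are not given in the sources used here. GENCODE M39 matched 31073 of 37991 identifiers (96.2% of counts), and identifiers stop at number 93789, as in an older release.

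Males were compared with females with edgeR 4.0.16 in R 4.3.3: TMM, default filter by sex, robust quasi-likelihood fits, Benjamini-Hochberg adjustment over 19480 genes, and calls at adjusted p under 0.05. Each standard error was taken from the fold change and the square root of its F statistic. Shares were compared by exact permutation. Total counts of 47678806 to 58325745 set the precision of each level. The fit was tested on simulated data. DESeq2 1.42.0, other normalizations and filters, a replicate block, a neutrophil covariate and leaving out each library were alternatives. No library pair agreed within sampling noise (chi-square per degree of freedom at least 33.6). Members and lists were chosen with earlier results of these data known. Named genes were all members, the 3 most abundant and any called gene of each list, and the 3 nearest profiles. Other genes named were chosen after their values were seen.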

Additional observations from a re-analysis of the deposited data

How the results depend on the processing

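Members called stayed at 0 in every alternative run, and so did the listed partner genes except with the replicate block, where 1 was called, Cdkn1c, lower in males (log2 fold change -1.01, edgeR adjusted p = 0.0143). Over all genes, 8 were called, 14 with scaling by total counts alone, 98 with no filter, 354 with DESeq2, 428 with the replicate block, 3 with the neutrophil score as a covariate, and 5 to 96 when 1 library was left out, with 96 without male replicate 3 and 5 without female replicate 2. The cause of these shifts was not tested. Whether replicate numbers pair the samples was not settled by the check made. Same-numbered libraries correlated at 0.194, 0.0402 and 0.298, the highest value of each female library. The 0.0402 was close to the 0.0373 of female replicate 2 with male replicate 1. Pairs with different numbers lay between -0.274 and 0.131, and male replicate 2 correlated best with female replicate 1 (0.131). With the block the difference in share is the same by construction, 0.000667 percentage points for the 2 untailed RNAs (exact sign-flip p = 1) and 0.0227 for the 7 genes (exact sign-flip p = 0.5). With 3 pairs the sign-flip p cannot go below 0.25. Of 96 refits of single members, 91 kept their direction. The reversals were H19 without female replicate 3 (0.57), Rmrp and Rpph1 without male replicate 3 (-1.62 and -0.50) and both with the neutrophil score (-0.77 and -0.25). When 1 library was left out, log2 fold changes ranged from -1.62 to 2.90 for Rmrp, -0.50 to 2.22 for Rpph1 and -2.17 to 0.57 for H19. The share of the 2 untailed RNAs ranged from -0.000104 (without male replicate 3) to 0.00106 points and that of the 7 genes from 0.0116 to 0.0380. Meg3 and H19 could not be fitted with at least 10 counts in every library. Levels under 1 CPM rest on few counts and limit what Meg3 and H19 can show.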
